A study of Homo sapiens with 6 samples.

Results

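The 39 genes described here are nuclear genes whose products copy, transcribe and translate the mitochondrial genome. They were chosen by name, from a list that covers mitochondrial DNA replication, mitochondrial transcription, RNA processing, RNA stability and decay, and translation factors. All 39 were found among the 24878 genes of the deposited table, and all 39 were among the 14601 genes with enough counts to be tested. They were followed by RNA-seq in MOLM-13, an established human acute myeloid leukaemia cell line labelled as the monocytic M5 type. Of the 6 libraries, 2 came from control cells without doxycycline. The other libraries came from cells labelled CaMK2D-KO, with a doxycycline-inducible knockout vector against CaMK2D, a calcium/calmodulin-dependent kinase, of which 2 were taken after 3 days and 2 after 5 days of doxycycline. Control and KO-labelled libraries therefore differed in vector and in doxycycline at once, which cannot be told apart, and the days differed in doxycycline exposure and in time. Whether both libraries of a group were grown as separate cultures is not stated in the labels, and the p-values below therefore reflect library-to-library spread that may be technical. The labels do not say whether the KO-labelled cells were 1 clone or a pool.

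Mitochondria carry a small circular genome that encodes core subunits of the respiratory chain, both mitochondrial ribosomal RNAs and a set of transfer RNAs. Every enzyme that copies or reads that genome is encoded in the nucleus, made in the cytosol and imported. A single RNA polymerase, POLRMT, transcribes both strands into long precursors, which are cut at the embedded transfer RNAs, polyadenylated, stabilised by RNA-binding proteins and translated on mitochondrial ribosomes. Leukaemia cells of the myeloid lineage are known for their reliance on mitochondrial translation and respiration.

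Total counts ran from 15456770 to 21081298 per library, and a count of 0 in the shallowest library allows a level of up to 0.194 CPM (counts scaled to a common library size), which covers counting error only. The 39 genes together took 0.250% and 0.257% of all counts in control, 0.285% and 0.297% at day 3, and 0.273% and 0.268% at day 5. Transcripts of the targeted gene, CAMK2D, were counted at 23.0 and 14.5 CPM in control libraries, 14.7 and 15.6 CPM at day 3 and 28.98 and 28.1 CPM at day 5. The day 3 libraries lay within the range of the controls and the day 5 libraries above both, so a lower transcript does not mark the KO-labelled libraries. A small edit need not lower the transcript, so they check the labels only weakly, and libraries are called KO-labelled throughout. The summed level of 8 myeloid markers was 639 to 757 FPKM (reads scaled by exon length and library total) in the controls, 337 to 413 at day 3 and 373 to 532 at day 5. At day 3, 2 of these 8 were called lower, and at day 5, 2 lower and 1 higher. Of 18 markers fixed for T, B, erythroid, epithelial, stromal and endothelial cells, 8 were analysed, and their summed level was 6.95 to 12.001 FPKM in the controls, 5.18 to 7.06 at day 3 and 5.62 to 9.12 at day 5. Most of that sum was KRT18, at 3.89 to 8.89 FPKM, while COL1A1, DCN and VWF were at 0 or at most 0.0203 FPKM in every library. Of the estimates for the 8 myeloid markers, 7 were negative and 1 positive at day 3, and 6 were negative and 2 positive at day 5. FLT3 had means of 969, 334 and 255 CPM in control, day 3 and day 5, and CD33 of 52.0, 51.4 and 50.1 CPM. LYZ differed widely within a group, at 10.9 and 135 FPKM at day 5. The lower summed level moved with the groups but was not shared by all 8 markers, and its part in the results below was not tested. In bulk RNA, fewer cells of a type and less RNA per cell cannot be told apart.

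Per length, the 39 transcripts covered a wide range in the control libraries. TUFM, the elongation factor that brings aminoacyl-tRNA to the mitochondrial ribosome, was the most abundant at 138 ± 11.6 FPKM (SD, n = 2). HSD17B10, a dehydrogenase that is also a subunit of mitochondrial RNase P, followed at 56.4 ± 12.1 FPKM. POLRMT stood at 43.8 ± 1.53 FPKM and TWNK, the replicative helicase, at 40.9 ± 8.89 FPKM, so these levels were close to each other relative to the spread of their libraries. LRPPRC, which holds mitochondrial mRNAs in a stable and translatable state, had 29.4 ± 3.46 FPKM. TFAM, which packages the genome and opens its promoters, and SSBP1, which coats single-stranded mitochondrial DNA, did not differ beyond their spread, at 23.1 ± 2.37 and 23.9 ± 3.28 FPKM. At the low end were PTCD2 at 0.783 ± 0.0107 FPKM, PTCD1 at 0.428 ± 0.0535 FPKM and MTERF2 at 0.384 ± 0.265 FPKM, where the controls of MTERF2 differed from each other by more than any pair of its group means.

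**Figure D1:**
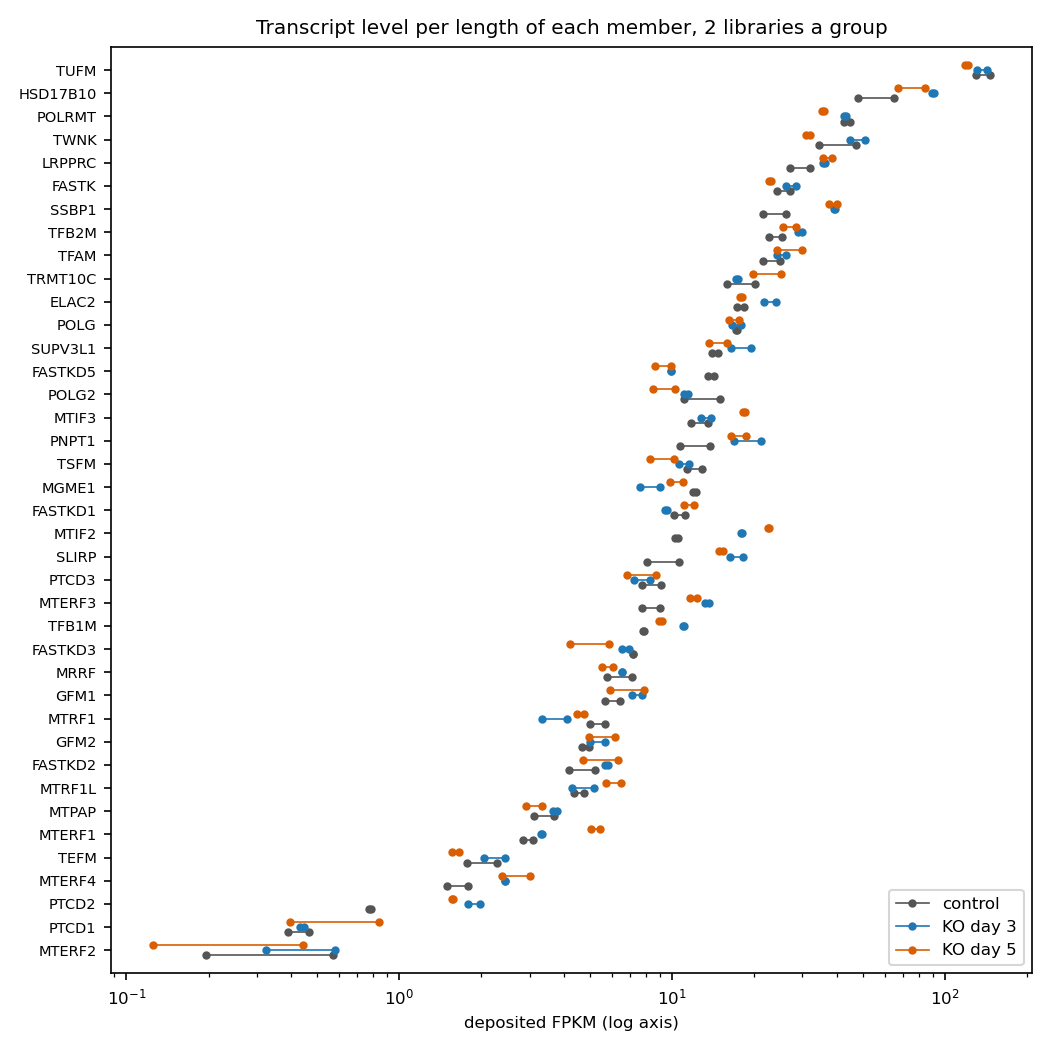
Deposited FPKM of each of the 39 genes (log axis), with 1 point per library, coloured by control, day 3 and day 5. Genes are ordered by their control level, from TUFM at 138 FPKM to MTERF2 at 0.384 FPKM.

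At day 3, 7 of the 39 genes were higher than in control past an adjusted p of 0.05 and 0 were lower (edgeR's quasi-likelihood test, Benjamini-Hochberg adjustment over all genes tested). They were PTCD2, SLIRP, MTIF2, SSBP1, MTERF3, HSD17B10 and PNPT1, with rises of 1.599-fold to 2.46-fold. Over all 14601 genes, 5.72% were called higher and 5.99% lower. The median log2 fold change of the 39 genes was 0.18, against -0.00 for all genes, and single values ran from -0.51 to 1.30. Of the 39, 30 had a positive and 9 a negative estimate, against 7297 and 7304 of all 14601 genes. In 18 of them both day 3 libraries lay above both controls and in 4 below, where the shares over all genes were 30.3% and 30.1%. At an unadjusted p under 0.05 there were 13 higher and 3 lower, where the shares over all genes were 14.4% and 14.5%. The adjusted calls rested on the pair of day 3 libraries: 0 of the 39 were called higher without day 3 replicate 1 and 1 (PTCD2) without day 3 replicate 2, where the spread of the lone library is taken from the other groups. Over all genes the calls fell likewise, from 1710 of 14601 to 282 of 15796 and 333 of 15766.

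At day 5, 5 of the 39 genes were called higher than control and 1 lower. The higher ones were MTIF2, PTCD2, MTERF1, SSBP1 and SLIRP, and the lower one was FASTKD5. Over all genes, 7.44% were called higher and 7.05% lower. The median log2 fold change of the 39 was 0.13, against 0.015 over all genes, with a range of -0.63 to 1.08. Estimates were positive in 21 and negative in 18, against 7452 and 7149 of all 14601 genes. In 12 genes both day 5 libraries lay above both controls and in 13 below, with 29.6% and 28.4% over all genes. At an unadjusted p under 0.05, 10 were higher and 6 lower, with 16.1% and 14.8% over all genes. Leaving out 1 library at a time gave 1 to 4 higher calls, the lowest without either day 5 library, where MTIF2 alone was called. It gave 0 to 3 lower calls, with 3 without control replicate 1. The median fell to 0.027 without control replicate 2, to 0.00024 without day 5 replicate 1 and to 0.030 without day 5 replicate 2. Both comparisons use the same control libraries, so calls at day 3 and day 5 are not independent of each other.

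**Figure D2:**
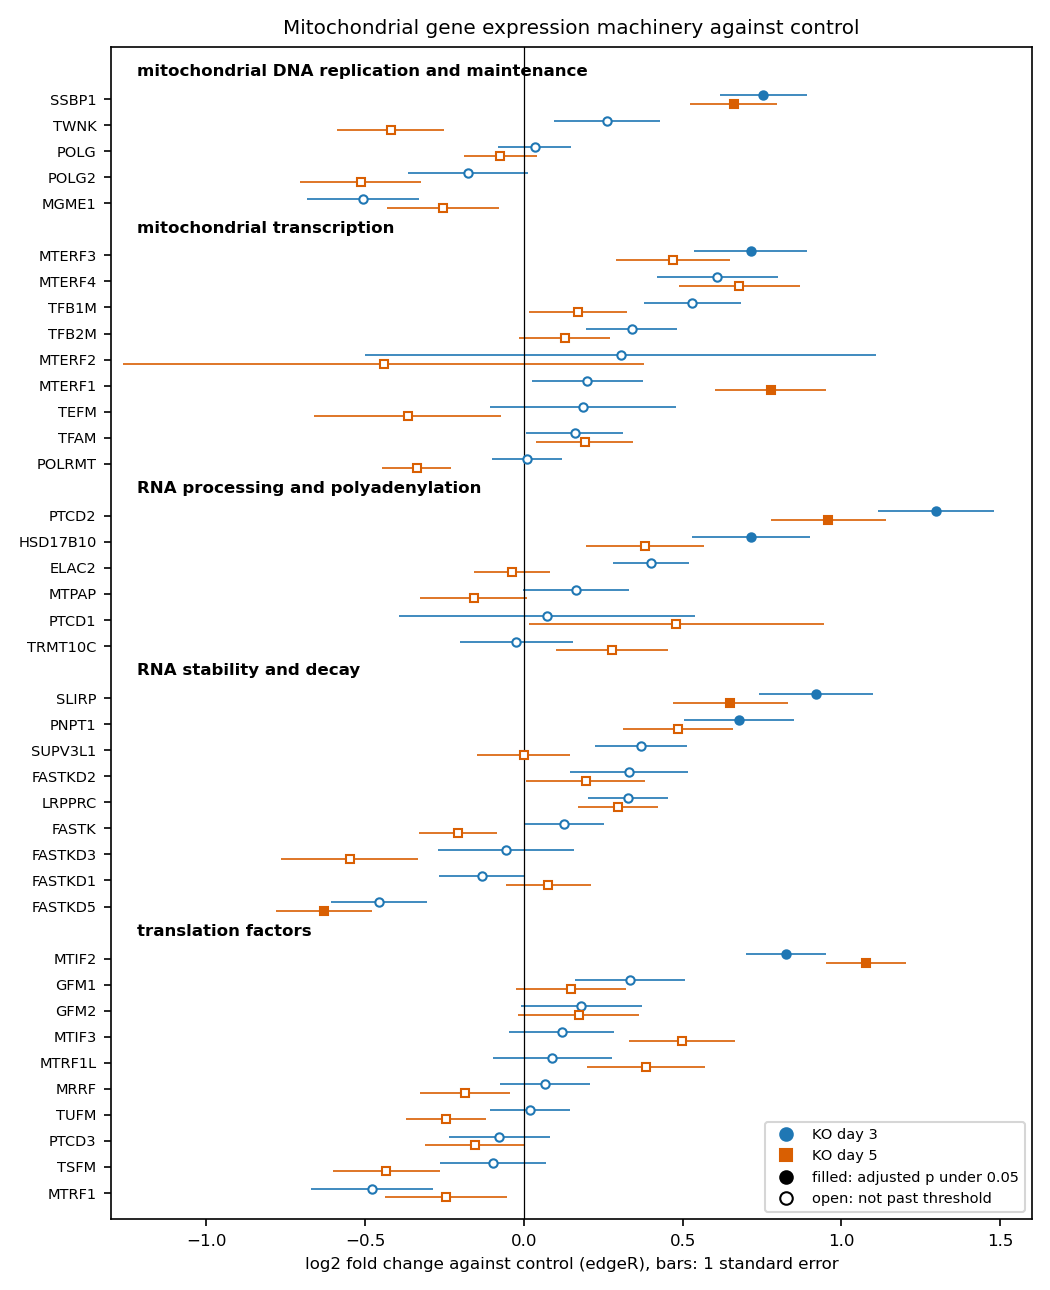
Log2 fold change against control (edgeR) of the 39 genes at day 3 and day 5, grouped by role, with bars of 1 standard error and filled points for an adjusted p under 0.05. The filled points lie to the right of 0 except FASTKD5 at day 5, at -0.63.

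SSBP1, PTCD2, SLIRP and MTIF2 were called higher in each comparison with control. Their promoter windows, from 250 bases before to 50 bases after the start site, are shown because these are the genes called at both days. RefSeq has 3 windows for SSBP1 and 2 for SLIRP, and the one at the annotated gene start is shown. The sequences are those of RefSeq on GRCh38.p14, read 5′ to 3′ on the gene's strand, with matches to the motifs searched in capitals. They are chr2:55269130-55269429 on the minus strand for MTIF2, chr5:72320123-72320422 on the plus strand for PTCD2, chr7:141738071-141738370 on the plus strand for SSBP1 and chr14:77707821-77708120 on the plus strand for SLIRP.
MTIF2: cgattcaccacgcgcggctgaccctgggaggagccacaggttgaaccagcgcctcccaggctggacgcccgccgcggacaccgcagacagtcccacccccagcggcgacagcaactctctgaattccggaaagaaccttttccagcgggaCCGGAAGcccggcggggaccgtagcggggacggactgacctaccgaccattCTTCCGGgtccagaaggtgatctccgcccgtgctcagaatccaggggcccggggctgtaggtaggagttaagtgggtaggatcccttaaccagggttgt
PTCD2: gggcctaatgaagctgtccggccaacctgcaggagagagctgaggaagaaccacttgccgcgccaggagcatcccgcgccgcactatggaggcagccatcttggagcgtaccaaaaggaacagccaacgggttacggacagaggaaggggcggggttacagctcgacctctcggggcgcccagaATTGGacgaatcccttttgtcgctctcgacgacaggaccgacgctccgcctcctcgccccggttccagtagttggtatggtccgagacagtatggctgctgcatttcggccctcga
SSBP1: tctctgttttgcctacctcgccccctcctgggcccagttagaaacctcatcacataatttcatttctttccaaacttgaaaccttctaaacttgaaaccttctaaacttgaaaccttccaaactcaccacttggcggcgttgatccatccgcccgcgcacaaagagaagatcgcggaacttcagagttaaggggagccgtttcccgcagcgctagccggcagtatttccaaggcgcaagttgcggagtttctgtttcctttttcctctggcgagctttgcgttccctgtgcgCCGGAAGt
SLIRP: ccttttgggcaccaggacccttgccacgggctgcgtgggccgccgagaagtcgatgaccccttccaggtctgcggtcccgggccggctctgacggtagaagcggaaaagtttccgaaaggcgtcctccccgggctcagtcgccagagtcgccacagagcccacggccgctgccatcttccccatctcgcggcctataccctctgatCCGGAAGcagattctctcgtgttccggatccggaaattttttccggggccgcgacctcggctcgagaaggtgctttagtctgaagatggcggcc
The MTIF2 window holds the ETS and GABP core CCGGAAG once on each strand, and the SSBP1 and SLIRP windows hold it once each. The PTCD2 window holds none of these and has a CCAAT box on the opposite strand.

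RefSeq windows were matched for 36 of the 39 genes, and TWNK, MTERF3 and FASTKD5 had no entry. A set of 5 motifs was searched on both strands. The ETS and GABP core CCGGAAG was present in a window of 16 of the 36 genes, or 44.4%, against 12.2% of all 27305 genes with a window and 16.5% of coding genes. The NRF1 core GCATGCGC was found in 4 of 36 genes (11.1%), namely MTPAP, POLRMT, TFB1M and TFB2M, against 3.68% of all genes and 4.89% of coding genes. CCAAT was present in 17 of 36 genes (47.2%), against 39.7% of all genes and 42.1% of coding genes. The E-box CACGTG was present in 0 of 36, against 8.77% of all genes and 10.9% of coding genes. The CHOP and ATF4 element TGATGNAA was present in 1 of 36 (2.78%), against 4.46% of all genes and 3.60% of coding genes. That match lies in a window of SSBP1 that is not shown. Over windows of this length, the shares of all 35116 that held each motif, in the same order, were 10.3%, 3.05%, 34.6%, 7.26% and 3.62%. A match is a string of letters in a window, not a bound site. Of the 7 genes called higher at either day with a window, 4 held CCGGAAG, a share that includes the 3 shown above and MTERF1.

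Of the 39 genes, 5 replicate and maintain the mitochondrial genome, and 1 of them was called. SSBP1 (ENSG00000106028, chromosome 7, 141738321 to 141787922, plus strand) had 107 and 132 CPM in control, 199.9 and 203.5 CPM at day 3 and 198 and 180.0 CPM at day 5. All KO-labelled libraries lay above both controls. At day 3 its log2 fold change stood at 0.75 (SE 0.14), and at day 5 at 0.66 (SE 0.14), with edgeR adjusted p of 0.0143 and 0.0187. The call was lost without day 3 replicate 1 or 2 at day 3 (0.0847 and 0.0895) and without day 5 replicate 1 or 2 at day 5 (0.0921 and 0.0561).

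The enzymes that act with SSBP1 at the replication fork did not pass the test against control. TWNK, which unwinds the DNA, had 142 and 197 CPM in control, 188 and 219 CPM at day 3 and 126 and 127 CPM at day 5. The controls were far apart, and day 3 overlapped them while both day 5 libraries lay below. At day 3 its log2 fold change stood at 0.26 (SE 0.17, edgeR adjusted p = 0.346), and at day 5 at -0.42 (adjusted p = 0.135). TWNK passed at day 3 without control replicate 2 (adjusted p = 0.0453), and at day 5, as lower, without control replicate 1 (adjusted p = 0.0220). With both controls, TWNK was also called lower at day 5 by edgeR without a filter on low counts (adjusted p = 0.0173). POLG, the catalytic subunit of the DNA polymerase, was among the steadiest genes, at 103 and 104 CPM in control, 109 and 103 at day 3 and 95.4 and 101 at day 5. Its log2 fold changes of 0.03 and -0.07 had edgeR adjusted p of 0.882 and 0.708. POLG2, the accessory subunit of that polymerase, had estimates of -0.18 and -0.51, and MGME1, an exonuclease that trims replication intermediates, of -0.51 and -0.26. Neither passed, though POLG2 was called lower at day 5 without control replicate 1 (edgeR adjusted p = 0.0342) and without a filter on low counts (0.0210). As a group, 3 estimates were positive and 2 negative at day 3, and 1 was positive and 4 negative at day 5.

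A group of 9 genes serves mitochondrial transcription, and at day 3 all 9 estimates were positive with a median of 0.30, while 1 was called. At day 5 there were 6 positive and 3 negative estimates, a median of 0.17, and 1 call. The core machinery did not pass the edgeR test. POLRMT had 217 and 232 CPM in control, 225 and 227 CPM at day 3 and 179 and 177 CPM at day 5. Day 3 lay between the controls and day 5 below every other library. At day 3 its log2 fold change stood at 0.01 (SE 0.11, edgeR adjusted p = 0.969), and at day 5 at -0.34 (SE 0.11, adjusted p = 0.0765). DESeq2 called POLRMT lower at day 5 (adjusted p = 0.0464), as did edgeR with the replicate number as a block (adjusted p = 0.0278). TFAM had 119 and 140.5 CPM in control, 138 and 152 CPM at day 3 and 166 and 131 CPM at day 5, so the 3 groups overlapped. Its estimates were 0.16 (SE 0.15, edgeR adjusted p = 0.531) and 0.19 (SE 0.15, adjusted p = 0.441). TFB2M, which melts the promoter with POLRMT, had 41.5 and 47.0 CPM in control, 54.4 and 57.7 CPM at day 3 and 51.6 and 45.2 CPM at day 5. Both day 3 libraries were above the controls, with an estimate of 0.34 (SE 0.14, edgeR adjusted p = 0.163), and day 5 overlapped them, with 0.13 (adjusted p = 0.597). TEFM, which keeps POLRMT elongating, was low at 7.32 and 5.75 CPM in control, 6.67 and 8.19 CPM at day 3 and 5.26 and 4.86 CPM at day 5. Its estimates of 0.19 and -0.37 had edgeR adjusted p of 0.722 and 0.444. Other genes share 26.1% of the exonic bases of TEFM.

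TFB1M is a relative of TFB2M that methylates the small ribosomal RNA. It had 21.3 and 21.6 CPM in control, 30.5 and 31.6 CPM at day 3 and 24.7 and 23.7 CPM at day 5, with each KO-labelled library above both controls. The estimate of 0.53 (SE 0.15) at day 3 missed the threshold (edgeR adjusted p = 0.0625), where limma on log2(FPKM + 1) gave 0.0466, and that at day 5 was 0.17 (adjusted p = 0.503).

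The called transcription genes were both of the mTERF family, proteins that bind mitochondrial nucleic acid. MTERF3, which acts on mitochondrial transcription and ribosome assembly, had 13.8 and 16.4 CPM in control, 24.9 and 24.7 CPM at day 3 and 21.8 and 20.1 CPM at day 5. All KO-labelled libraries exceeded both controls. At day 3 its log2 fold change stood at 0.71 (SE 0.18, edgeR adjusted p = 0.0398), and at day 5 at 0.47 (adjusted p = 0.118). The day 3 call of MTERF3 was lost without control replicate 1 (0.152), day 3 replicate 1 or 2 (0.192 and 0.183) and day 5 replicate 1 or 2 (0.0560 and 0.0540). MTERF1 (chromosome 7, 91692008 to 91880720, minus strand), which binds a site just downstream of the mitochondrial ribosomal RNA genes, had another time course. It stood at 13.8 and 15.2 CPM in control, 16.5 and 16.9 CPM at day 3 and 24.3 and 25.5 CPM at day 5. MTERF1 was called at day 5 (log2 fold change 0.78, SE 0.175, edgeR adjusted p = 0.0252) and not at day 3 (0.20, adjusted p = 0.496). The direct comparison of the days gave 0.58 (adjusted p = 0.223). The day 5 call of MTERF1 was lost on leaving out each of the 6 libraries in turn (adjusted p 0.0507 to 0.108). MTERF4, a partner of a ribosomal RNA methyltransferase, had estimates of 0.61 (SE 0.19, adjusted p = 0.0780) and 0.68 (SE 0.19, adjusted p = 0.05005), which miss the threshold. MTERF4 passed at day 5 with DESeq2 (adjusted p = 0.0400) and with edgeR without a filter (0.0322). The exons of MTERF4 share 51.0% of their bases with SNED1 on the other strand, whose reads cannot be told apart here. MTERF2 was near the limit of counting, at 0.437 to 2.20 CPM over all libraries.

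A group of 6 genes cuts the precursor RNAs or adds poly(A) tails. At day 3, 2 were called higher, and 5 of 6 estimates were positive with a median of 0.28. At day 5, 1 was called, and 4 of 6 were positive with a median of 0.33. PTCD2 (ENSG00000049883, chromosome 5, 72320367 to 72368395, plus strand), a pentatricopeptide protein needed in mice for maturation of the cytochrome b transcript, had the largest rise of the 39 genes at day 3. It had 9.51 and 9.49 CPM in control, 24.2 and 22.5 CPM at day 3 and 18.6 and 18.3 CPM at day 5. The 3 groups did not overlap, with day 3 the highest. The rise was 2.46-fold at day 3 (log2 fold change 1.30, SE 0.18, edgeR adjusted p = 0.00596) and 1.94-fold at day 5 (0.96, SE 0.18, adjusted p = 0.0141). PTCD2 lost its call without day 3 replicate 1 at day 3 (0.0561) and without day 5 replicate 1 or 2 at day 5 (0.0587 and 0.0566). The day 5 call of PTCD2 was also lost with limma on log2 FPKM at pseudocounts of 1 and 0.1. PTCD2 has 2 annotated pseudogenes, PTCD2P1 and PTCD2P2, whose reads the counting could have shared.

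Enzymes of transfer RNA release differed in their levels. HSD17B10 (chromosome X, 53431258 to 53434373, minus strand), the RNase P subunit named above, had 53.0 and 73.2 CPM in control, 103 and 104 CPM at day 3 and 92.6 and 72.1 CPM at day 5. Day 3 stood above all other libraries and day 5 overlapped the controls. At day 3 its log2 fold change stood at 0.71 (SE 0.19, edgeR adjusted p = 0.0451), and at day 5 at 0.38 (adjusted p = 0.205). The day 3 call of HSD17B10 was lost without control replicate 1 (0.133) and without day 3 replicate 1 or 2 (0.166 and 0.168). It was also lost with limma on log2(FPKM + 1), at an adjusted p of 0.0648. TRMT10C, which forms a complex with HSD17B10 and methylates transfer RNAs, had 37.8 and 30.4 CPM in control, 32.8 and 34.1 CPM at day 3 and 36.8 and 45.7 CPM at day 5. Its groups overlapped, with estimates of -0.02 (edgeR adjusted p = 0.950) and 0.28 (SE 0.18, adjusted p = 0.332). ELAC2, the RNase Z that cuts the 3′ ends of transfer RNAs, had 116 and 111 CPM in control, 140.3 and 159 CPM at day 3 and 110.5 and 110.2 CPM at day 5. Its estimate of 0.40 (SE 0.12) at day 3 missed the threshold (edgeR adjusted p = 0.0684), and at day 5 it was -0.04. MTPAP, the mitochondrial poly(A) polymerase, had estimates of 0.16 and -0.16. PTCD1, which is linked to leucine transfer RNA precursors, had 2.25 to 4.70 CPM over the libraries, too few counts for a narrow estimate (0.48, SE 0.46, at day 5), and 57.2% of its exonic bases belong to other genes too.

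**Figure D3:**
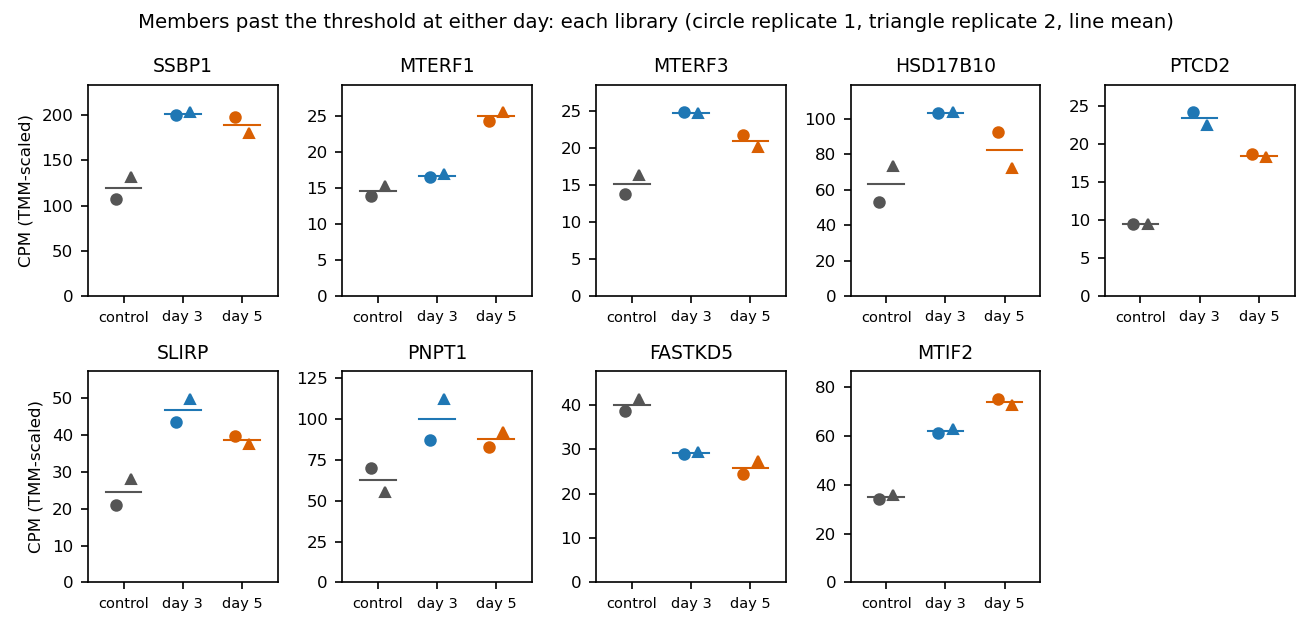
CPM per library of the 9 genes past an adjusted p of 0.05 at day 3 or day 5, 1 panel a gene, each with an axis from 0 and a line at each group's mean (n = 2). PTCD2 rose from 9.49 and 9.51 CPM to 22.5 and 24.2 CPM at day 3, and FASTKD5 stood at 25.9 CPM at day 5 against 40.0 in the controls.

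A further 9 genes stabilise, mature or degrade mitochondrial RNA. At day 3, 2 were called higher, with 6 positive and 3 negative estimates and a median of 0.33. At day 5, 1 was called higher and 1 lower, with 5 positive and 4 negative estimates and a median of 0.077. SLIRP (ENSG00000119705, chromosome 14, 77708071 to 77761104, plus strand), a small RNA-binding protein that works in a complex with LRPPRC, had 21.1 and 28.1 CPM in control, 43.5 and 49.9 CPM at day 3 and 39.8 and 37.6 CPM at day 5. All KO-labelled libraries lay above both controls. At day 3 its log2 fold change stood at 0.92 (SE 0.18, edgeR adjusted p = 0.0189), and at day 5 at 0.65 (SE 0.18, adjusted p = 0.0482). The SLIRP call at day 3 was lost without day 3 replicate 1 or 2 (0.0697 and 0.122). At day 5 it was lost without every library except control replicate 2 (0.0933 to 0.155) and with relative log expression scaling (0.0520). Of the exonic bases of SLIRP, 14.9% also belong to other genes. Its partner LRPPRC had 309 and 266 CPM in control, 359 and 363 CPM at day 3 and 372 and 334 CPM at day 5, so all KO-labelled libraries were above both controls. The estimates for LRPPRC were smaller, at 0.33 (SE 0.13, adjusted p = 0.129) and 0.30 (SE 0.13, adjusted p = 0.152), and did not pass.

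PNPT1 (chromosome 2, 55634265 to 55693910, minus strand) is the polynucleotide phosphorylase that degrades mitochondrial RNA together with the helicase SUPV3L1. It had 69.8 and 55.3 CPM in control, 87.5 and 113 CPM at day 3 and 83.2 and 91.9 CPM at day 5. No KO-labelled library fell within the range of the controls, though both day 3 libraries were far apart. PNPT1 was called at day 3 (log2 fold change 0.68, SE 0.17, edgeR adjusted p = 0.0416) and not at day 5 (0.49, adjusted p = 0.0989). The day 3 call of PNPT1 was lost without control replicate 2 (0.0941), day 3 replicate 1 or 2 (0.0720 and 0.251) and day 5 replicate 1 or 2 (0.0559 and 0.0562), and with limma on log2(FPKM + 1), at 0.0742. PNPT1 has 2 annotated pseudogenes. SUPV3L1 had 62.5 and 60.3 CPM in control, 71.6 and 86.9 CPM at day 3 and 57.4 and 65.3 CPM at day 5. Its estimates of 0.37 (edgeR adjusted p = 0.138) and -0.00 did not pass.

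The FASTK family holds RNA-binding proteins that act on single mitochondrial transcripts, and its 5 members among the 39 genes had estimates of both signs. FASTKD5 (chromosome 20, 3146519 to 3159897, minus strand), which is needed for cutting mRNAs that lack a flanking transfer RNA, had 38.7 and 41.4 CPM in control, 28.9 and 29.5 CPM at day 3 and 24.4 and 27.3 CPM at day 5. All KO-labelled libraries lay below both controls. FASTKD5 was called lower at day 5 (log2 fold change -0.63, SE 0.15, edgeR adjusted p = 0.0306), and its estimate at day 3 was -0.46 (SE 0.15, adjusted p = 0.0896). It lost the call without each library except control replicate 1 (0.0614 to 0.128). FASTKD3 had 20.3 and 20.8 CPM in control and 16.5 and 11.6 CPM at day 5, with estimates of -0.06 and -0.55 (edgeR adjusted p = 0.127 at day 5). FASTKD2, which binds the large ribosomal RNA, had estimates of 0.33 and 0.19, FASTK of 0.13 and -0.21, and FASTKD1 of -0.13 and 0.08. None of these passed.

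The remaining 10 genes are translation factors, and 1 was called at each day. At day 3, 7 estimates were positive and 3 negative with a median of 0.078, and at day 5 there were 5 of each with a median of -0.003. MTIF2 (ENSG00000085760, chromosome 2, 55236595 to 55269347, minus strand) is initiation factor 2, which places the formylated initiator tRNA on the mitochondrial small subunit. It had 34.2 and 35.9 CPM in control, 61.2 and 63.0 CPM at day 3 and 75.3 and 72.7 CPM at day 5. Replicates were close and the 3 groups did not overlap. MTIF2 rose 1.77-fold at day 3 (log2 fold change 0.82, SE 0.13, edgeR adjusted p = 0.00808) and 2.11-fold at day 5 (1.08, SE 0.13, adjusted p = 0.00273). The day 3 call was lost without day 3 replicate 1 or 2 (0.0636 and 0.0704). The day 5 call of MTIF2 was kept in each of the 16 alternatives run, the only call among the 39 genes to do so, and its adjusted p was 0.00390 to 0.0196 when a library was left out. Its exons share no base with another annotated gene.

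The other initiation factor, MTIF3, had 21.5 and 19.0 CPM in control, 20.8 and 23.2 CPM at day 3 and 28.6 and 28.6 CPM at day 5. Its estimate was 0.12 at day 3 and 0.50 at day 5, where it missed the threshold (edgeR adjusted p = 0.0833) and where limma on log2(FPKM + 1) gave 0.0379. Elongation factors did not pass. TUFM had 293 and 336 CPM in control, 301 and 337 CPM at day 3 and 272 and 258 CPM at day 5, with estimates of 0.02 (adjusted p = 0.942) and -0.25 (adjusted p = 0.228). Its exchange factor TSFM had estimates of -0.10 and -0.43 (adjusted p = 0.123 at day 5), and both day 5 libraries of TUFM and of TSFM lay below their controls. GFM1, which moves the ribosome along the mRNA, had 57.9 and 51.7 CPM in control, 65.4 and 72.8 CPM at day 3 and 70.1 and 51.3 CPM at day 5. The day 5 libraries of GFM1 spanned the range of the controls, and its estimates were 0.33 (adjusted p = 0.245) and 0.15 (adjusted p = 0.614). Factors of termination and recycling gave estimates between -0.48 and 0.18 at day 3 and between -0.24 and 0.38 at day 5. They were the release factors MTRF1 and MTRF1L, and the recycling factors MRRF and GFM2, and none passed. PTCD3, a pentatricopeptide protein of the small subunit, had -0.08 and -0.15.

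**Figure D4:**
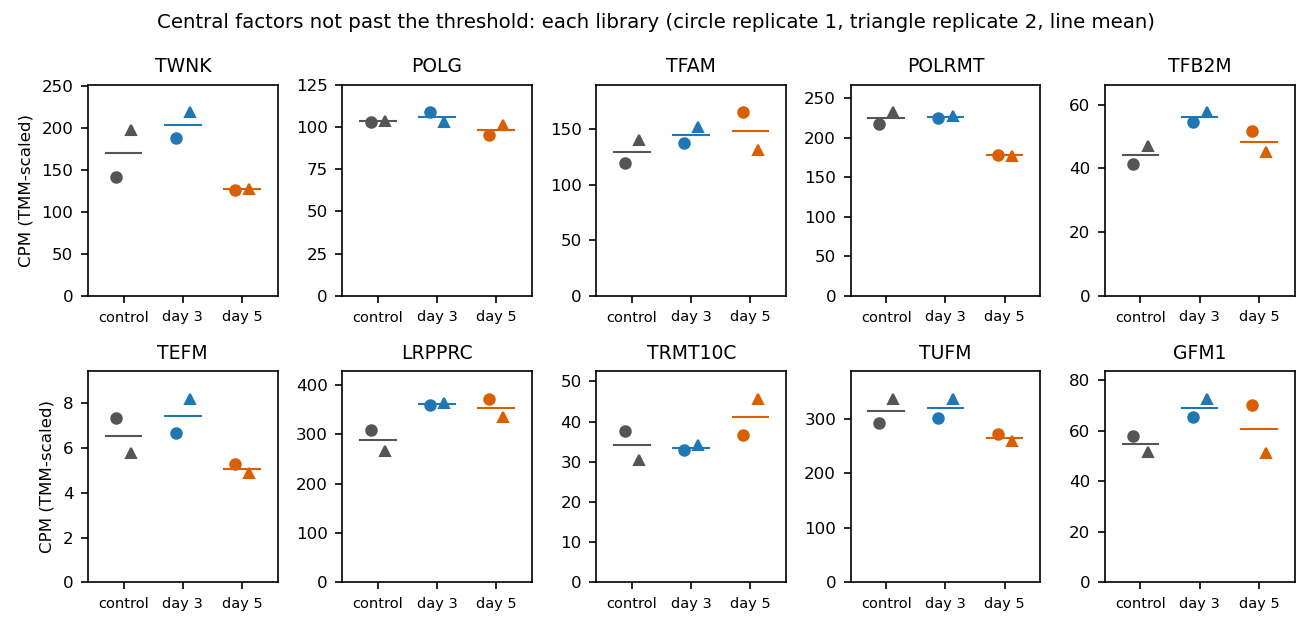
CPM per library of the central factors chosen by role that edgeR, with its low-count filter and no block, did not call against control, 1 panel a gene. Each panel has an axis from 0 and a line at each group's mean (n = 2). Central factors that were called are left out here and are drawn with the other called genes above. The panels were therefore selected by outcome and do not show that no central factor changed. The groups overlap for TFAM, and POLRMT is at 178 CPM at day 5 against 225 in the controls.

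Between the days, 0 of the 39 genes were called in either direction by edgeR, where 0.0274% of all genes were called higher at day 5 and 0% lower. The median log2 difference, day 5 minus day 3, was -0.19 against 0.021 over all genes, with a range of -0.75 to 0.58. Negative estimates were found in 28 of the 39 genes, against 6985 of all 14601 genes. In 21 genes both day 5 libraries lay below both day 3 libraries and in 8 above, with 23.8% and 25.5% over all genes. At an unadjusted p under 0.05, 6 were lower and 1 higher, with 6.55% and 8.55% over all genes. TWNK had the smallest adjusted p of the 39, with a difference of -0.68 (SE 0.17, edgeR adjusted p = 0.189). DESeq2 called TWNK lower at day 5 than at day 3 (adjusted p = 0.0207), as did edgeR without a filter on low counts (0.000313). POLRMT differed by -0.35 (edgeR adjusted p = 0.238) and ELAC2 by -0.44 (adjusted p = 0.203), each with both day 5 libraries below both day 3 libraries.

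Other genes of the same pathways were taken from 6 lists of 102 genes, all of which were tested. At day 3, 14 of them were called, 12 higher and 2 lower, and at day 5 there were 24, of which 15 were higher and 9 lower. Over all genes the shares called were those given above, 5.72% higher and 5.99% lower at day 3 and 7.44% and 7.05% at day 5. In the 25 enzymes that modify mitochondrial ribosomal and transfer RNA, 3 were called higher and 0 lower at day 3, with a median of 0.31, and 3 in each direction at day 5, with a median of 0.10. MRM1, a ribosomal RNA methyltransferase, had 10.7 and 14.5 CPM in control, 27.3 and 28.9 CPM at day 3 and 16.9 and 17.5 CPM at day 5. MRM1 rose at day 3 (log2 fold change 1.16, SE 0.20, edgeR adjusted p = 0.0130), a call lost without day 3 replicate 1 or 2 (0.0697 and 0.0801), and its estimate at day 5 was 0.45 (adjusted p = 0.176). TRMU, which thiolates transfer RNAs, fell by 0.77 at day 5 (SE 0.14, edgeR adjusted p = 0.0142), lost without day 5 replicate 2 (0.0851). Among 18 assembly factors of the mitochondrial ribosome, 2 were called higher and 1 lower at day 3, and 2 higher and 3 lower at day 5. GTPBP10, a GTPase of large-subunit assembly, went from 23.2 ± 0.309 to 43.9 ± 2.78 CPM at day 3 and 47.8 ± 0.335 CPM at day 5 (SD, n = 2), with log2 fold changes of 0.92 (edgeR adjusted p = 0.00848) and 1.04 (adjusted p = 0.00469). NOA1, another assembly GTPase, moved the other way, from 88.98 ± 6.45 to 56.1 ± 5.02 and 50.2 ± 0.118 CPM, with -0.66 (edgeR adjusted p = 0.0200) and -0.82 (adjusted p = 0.00814). The day 3 call of GTPBP10 was lost without day 3 replicate 1 or 2 (0.0537 and 0.0774). That of NOA1 was lost without control replicate 1 (0.0529) or day 3 replicate 1 or 2 (0.177 and 0.0979), and its day 5 call without day 5 replicate 2 (0.0505).

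Among 24 genes of mitochondrial DNA repair and nucleotide supply, 2 were called higher at day 3 (median 0.26), and 4 higher and 1 lower at day 5 (median 0.071). RNASEH1, which removes RNA from the replication primer, went from 35.7 ± 3.49 CPM to 67.8 ± 4.11 and 60.9 ± 1.53 CPM, with log2 fold changes of 0.93 (edgeR adjusted p = 0.00776) and 0.77 (adjusted p = 0.0116). The RNASEH1 call was lost without day 3 replicate 1 at day 3 (0.0689) and without day 5 replicate 1 or 2 at day 5 (0.0595 and 0.0528). UNG, a uracil glycosylase with nuclear and mitochondrial forms, went the other way at day 5, from 84.6 ± 0.978 to 40.3 ± 7.85 CPM (-1.07, edgeR adjusted p = 0.00562), while day 3 stood at 105 ± 4.55 CPM (0.31, adjusted p = 0.228). Counts per gene cannot separate the forms of UNG. Of 14 genes of membrane insertion and translational activation, 2 were called higher at day 3 (median 0.34), and 2 higher and 1 lower at day 5 (median 0.14). MRPL58, a ribosome-bound hydrolase that frees stalled chains, rose by 0.84 at day 3 and by 0.93 at day 5 (edgeR adjusted p = 0.0118 and 0.00690), where the day 3 call was lost without day 3 replicate 1 or 2 (0.0681 and 0.0989). OXA1L, which inserts new proteins into the inner membrane, fell by 0.68 at day 5 (edgeR adjusted p = 0.00986), lost without day 5 replicate 2 (0.0573), and its day 3 estimate was -0.35 (adjusted p = 0.0924). Of 7 genes listed as other RNA factors, 2 were called higher at each day, LONP1 and REXO2, of which LONP1 is a protease. LONP1, the matrix protease that also acts on TFAM, had 427 and 419 CPM in control, 986 and 997 CPM at day 3 and 875 and 867 CPM at day 5. Its rises of 1.23 (SE 0.11, edgeR adjusted p = 0.00135) and 1.04 (SE 0.11, adjusted p = 0.00188) on the log2 scale were called in all 16 alternatives. REXO2, an oligoribonuclease, rose by 1.10 (edgeR adjusted p = 0.0273) and 1.16 (adjusted p = 0.0194). REXO2 lost its calls without control replicate 1 (0.0912 and 0.0638), at day 3 without day 3 replicate 1 or 2 (0.0507 and 0.161) and at day 5 without day 5 replicate 2 (0.0963).

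Among 14 regulators of mitochondrial biogenesis, 1 was called higher and 1 lower at day 3 (median 0.041), and 2 higher and 1 lower at day 5 (median -0.14). MYC, a transcription factor of growth genes, had 614 and 603 CPM in control, 891 and 1112 CPM at day 3 and 510 and 545 CPM at day 5. It was called higher at day 3 (0.72, SE 0.14, edgeR adjusted p = 0.0169), a call lost without day 3 replicate 2 (0.150), and not at day 5 (-0.21, adjusted p = 0.345). GABPB2, a partner subunit of the ETS factor GABPA, was called at day 5 (0.58, SE 0.14, edgeR adjusted p = 0.0292), and lost that call on leaving out each library in turn (0.0617 to 0.132). NRF1 and GABPA, named here for their textbook role at these promoters and outside the rule for naming genes, did not pass. NRF1 had 30.9 ± 4.61, 35.4 ± 6.77 and 28.99 ± 4.07 CPM in control, day 3 and day 5, with estimates of 0.19 and -0.09. GABPA had 33.1 ± 6.02, 26.4 ± 2.41 and 34.5 ± 12.1 CPM, with -0.32 and 0.06. Between the days, 0 genes of the 6 lists were called by edgeR with its low-count filter and no block, and 6 by DESeq2. Of the 102 estimates between the days, 74 were negative and 28 positive.

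Most transcripts that this machinery makes stood lower in the same libraries. Of the 13 mitochondrially encoded mRNAs, 10 were called lower and 0 higher than control at each day, with median log2 fold changes of -1.36 and -1.12. The other 3, MT-ND5, MT-ND6 and MT-ATP8, had positive estimates at each day that did not pass. MT-ATP8 was near the limit of counting, at 0.479 to 0.989 CPM over all libraries (SE 0.76 at day 3), so its direction is not known. MT-ND6, the one mRNA of these 13 read from the other strand, had 268 and 346 CPM in control, 361 and 402 CPM at day 3 and 353 and 485 CPM at day 5, with both KO-labelled groups above both controls. Its estimates were 0.31 (edgeR adjusted p = 0.308) and 0.45 (adjusted p = 0.148), and it was singled out after its values were seen. The libraries were poly(A)-selected and the kit is not stated to keep strand. Reads at MT-ND6 can therefore not be assigned to a strand, and these counts show no contrast between strands. MT-CO2, a cytochrome c oxidase subunit, had 4783 and 4078 CPM in control, 679 and 805 CPM at day 3 and 766 and 707 CPM at day 5. Set side by side, the nuclear-encoded POLRMT, TFAM, TFB2M and TEFM were called in neither comparison by edgeR without a block. DESeq2, and edgeR with the replicate number as a block, called POLRMT lower at day 5. The 39 genes had medians of 0.18 and 0.13, and the mitochondrial mRNAs moved by -1.36 and -1.12.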

How the data were processed

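Poly(A)-selected RNA of 6 MOLM-13 libraries in 3 groups was taken from 1 deposited table. The authors deposited raw read counts and FPKM values per gene and library, per the file headers. The deposited FPKM equals the count over the table total and a gene length, which for all 39 genes was the exon union length of GENCODE release 29. The submitters' processing notes name HISAT2, HTSeq 0.11.2, DESeq2 1.26.0 and the build GRCh38 without saying what each was used for. How reads were assigned to genes is not given in the sources used here, and the kit is not stated to keep strand, so overlapping genes cannot be told apart. Of the 39 genes, 17 share no exonic base with another gene and 7 have named pseudogenes. The largest shared parts were 57.2% for PTCD1, 51.0% for MTERF4, 34.8% for MTRF1L and 33.1% for MTPAP. TSFM followed with 28.5%, TEFM with 26.1% and GFM2 with 18.8%.

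Counts were tested with edgeR 4.0.16 in R 4.3.3 (filterByExpr with a minimum count of 10 and a minimum total of 15, TMM factors, robust quasi-likelihood test). The 3 groups were fitted in 1 model without a block, and p-values were adjusted by Benjamini-Hochberg over 14601 genes and called below 0.05. With 6 libraries, 3 residual degrees of freedom remained. CPM values are TMM-scaled, and fold changes were computed with a prior count of 0.125. Standard errors (SE) were obtained by dividing the size of the log2 change by the square root of F. The procedure was also run on simulated libraries. These were drawn independently, without the shared deviation of same-numbered libraries described below, and nothing here rests on that run. Libraries of a group differed by more than sampling noise (chi-square over degrees of freedom 17.4 to 37.7). Alternatives were other scalings and filters, DESeq2 1.42.0, limma 3.58.1 on log2 FPKM with pseudocounts of 1 and 0.1, the replicate number as a block, fits of only the libraries compared, and leaving out each library.

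Members and lists were chosen with earlier results of these data known, so no p is adjusted over them alone. Named with values per library were all members past the threshold and 13 central factors chosen by role. Other members are given by estimates or ranges, some with library values chosen after they were seen (TFB1M, ELAC2, SUPV3L1, FASTKD3, MTIF3). From each companion list up to 2 genes with the smallest adjusted p against control were named. Promoter windows came from RefSeq (GRCh38.p14).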

Additional observations from a re-analysis of the deposited data

How the results depend on the processing

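No alternative reversed a direction that was called. Over results of single members, the settings that kept all libraries left 1093 the same, with 25 calls lost and 33 gained, and leaving out a library left 659 the same, with 40 lost and 3 gained. Relative log expression and upper-quartile scaling and a stricter filter (5 CPM, 2 or more libraries) moved no count of members or of companion genes by over 1.5 times and no median by more than its replicate spread.

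Fits of only the libraries compared called 4 members higher at day 3, and at day 5 they called 2 higher, 0 lower and 14 companion genes. Limma on log2(FPKM + 1) without a filter called 1 member higher and 2 companion genes at day 3, with a median of 0.10, and 1 higher, 0 lower and 9 companion genes at day 5. That limma fit and the one with a mean FPKM of at least 0.5 gave a median of -0.11 between the days. Without a filter on low counts, edgeR called 3 members lower at day 5, and 1 member lower and 13 companion genes between the days. DESeq2 called 2 lower at day 5, and 1 lower and 6 companion genes between the days. Over all genes, edgeR called 1710, 2117 and 4 in the 3 comparisons, 1463, 1315 and 4 with only the libraries compared, 2925, 3234 and 599 without a filter, DESeq2 called 2399, 2762 and 306, and limma without a filter 254, 605 and 0.

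Leaving out 1 library gave 0 to 7 members called higher and 2 to 21 companion genes at day 3, with medians of 0.10 to 0.24. At day 5 it gave 1 to 4 higher, 0 to 3 lower and 4 to 20 companion genes, with medians of 0.00024 to 0.12. Between the days it gave 0 to 2 companion genes and medians of -0.29 to -0.19. A group cut to 1 library is assumed to vary like the others.

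With the replicate block, 12 members were called higher and 2 lower at day 3 with 29 companion genes, 8 higher and 6 lower at day 5 with 41 companion genes, and 2 lower between the days with 17 companion genes. The members gained were TFB1M, MTERF4, ELAC2, LRPPRC and SUPV3L1 (higher) and MGME1 and FASTKD5 (lower) at day 3, MTERF4, PNPT1 and MTIF3 (higher) and TWNK, POLG2, POLRMT, FASTKD3 and TSFM (lower) at day 5, and TWNK and ELAC2 (lower) between the days. Over all genes the replicate block called 4064, 4418 and 1117. Same-numbered libraries deviated together (correlations of 0.355, 0.303 and 0.347 over 14601 genes), and their titles share a letter, but with 2 libraries a group, and no batch or day named in the labels, the pairing is not established. Causes of these changes were not tested. Among the members, depth limits mainly MTERF2 and PTCD1, at under 5 CPM in every library, and among the mitochondrial mRNAs MT-ATP8.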
